A study of Mus musculus with 4 samples.

Results

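The complement genes described here were 9 of the 31053 genes in the deposited table, chosen by name. They were C1qa, C1qb and C1qc, which encode the A, B and C chains of C1q, together with C1ra, C3, C4b, Serping1, C3ar1 and C5ar1. All 9 had UMIs (unique molecular identifiers, 1 per captured transcript) in every library. Levels are given in CPM, the UMIs of a gene per 1000000 UMIs of the cells of that type. The choice was made with their split between macrophages and stroma already known, so that split is given as a description without a test. The cells came from 4 single-cell RNA libraries of mouse aortic arch, sequenced to ask how loss of the transcription factor Nrf2 in endothelial cells and part of the leukocytes goes with early atherosclerosis.

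All mice were males, 3 months old at the start, that carried floxed alleles of Nfe2l2, the gene of Nrf2. The Nrf2Cdh5tKO mice carried in addition a Cre transgene driven by the Cdh5 promoter, which is active in endothelial cells and in a proportion of leukocytes. Controls, labelled Nrf2Cdh5Lox in the sample records, are called Nrf2flox/flox. Atherosclerotic mice received a single injection of an AAV8 vector and a high-fat diet for 21 weeks, and 3 of them were pooled per library. Normocholesterolemic mice received saline and a standard diet, and 4 of them were pooled per library. Vector and diet went together and cannot be told apart. Each of the 4 conditions was 1 library with no replicate, so no test between conditions was made. An additive fit of diet and genotype, which would leave 1 residual degree of freedom among the libraries, was not run, and every interval below covers counting error only. Values for the 4 libraries are given throughout in the order Nrf2flox/flox normocholesterolemic, Nrf2Cdh5tKO normocholesterolemic, Nrf2flox/flox atherosclerotic and Nrf2Cdh5tKO atherosclerotic.

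Complement is a cascade of plasma and tissue proteins that marks particles and dying cells for removal. In the classical pathway C1q binds its target and, with the proteases C1r and C1s, cleaves C4 and C2, which leads to cleavage of C3. Fragments of C3 and C5 signal to myeloid cells through the receptors C3ar1 and C5ar1, and Serping1 (C1 inhibitor) blocks C1r and C1s. The liver makes most plasma complement, whereas C1q is known as a product of tissue macrophages.

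The libraries held 1160 to 8512 barcodes and 12276546 to 98754487 UMIs, and 14148 of 15599 barcodes passed the filters. Marker lists that held no complement gene placed 13094 of these cells (92.6%) in a type, among them 597, 308, 97 and 242 macrophage-like cells and 4557, 1655, 487 and 1253 fibroblast-like cells. All 7 macrophage markers and all 7 fibroblast markers were highest in their own cells. The cells were gated on these markers, so this is no separate check of the gates. In monocyte-like cells 5 of 7 markers were highest in their own cells, in dendritic-like cells 5 of 6 and in T cell-like cells 4 of 5. The libraries shared few barcodes, 30 of 15568 distinct ones. Nfe2l2 was higher, not lower, in the endothelial-like cells of the libraries labelled Nrf2Cdh5tKO, at 186, 385, 170 and 360 CPM. Whether the 3′ tags fall in the excised exon was not examined, so this value does not check the genotype labels.

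The promoters of 6 of the 9 genes, all but C1qa, C4b and Serping1, were taken from RefSeq (GRCm38.p6). The 4 shown come from both sides of the split and are those that hold the letters marked below. C3ar1, on the macrophage side without AGGAAGT, and C1ra, on the stromal side without TTGCGNAA, are not shown. Each sequence shown runs 5′ to 3′ from 250 bases before to 50 bases after the gene's start. For C1qb (chr4:136886151-136886450, minus strand), C1qc (chr4:136892865-136893164, minus strand) and C5ar1 (chr7:16259289-16259588, minus strand), capitals mark the ETS-type letters AGGAAGT, here on the reverse strand. For C3 (chr17:57228087-57228386, minus strand), capitals mark the C/EBP-type letters TTGCGNAA.
C1qb: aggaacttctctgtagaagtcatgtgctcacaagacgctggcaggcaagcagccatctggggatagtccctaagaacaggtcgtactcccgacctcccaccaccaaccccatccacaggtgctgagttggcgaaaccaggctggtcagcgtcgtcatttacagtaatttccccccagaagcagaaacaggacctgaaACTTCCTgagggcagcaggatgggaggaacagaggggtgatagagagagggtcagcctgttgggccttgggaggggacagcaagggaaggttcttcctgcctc
C1qc: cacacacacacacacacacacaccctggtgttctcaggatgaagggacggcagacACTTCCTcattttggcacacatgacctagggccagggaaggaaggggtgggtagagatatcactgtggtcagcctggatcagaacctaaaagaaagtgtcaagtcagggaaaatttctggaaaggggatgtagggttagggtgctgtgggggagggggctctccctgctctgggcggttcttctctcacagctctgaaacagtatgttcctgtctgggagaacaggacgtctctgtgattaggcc
C5ar1: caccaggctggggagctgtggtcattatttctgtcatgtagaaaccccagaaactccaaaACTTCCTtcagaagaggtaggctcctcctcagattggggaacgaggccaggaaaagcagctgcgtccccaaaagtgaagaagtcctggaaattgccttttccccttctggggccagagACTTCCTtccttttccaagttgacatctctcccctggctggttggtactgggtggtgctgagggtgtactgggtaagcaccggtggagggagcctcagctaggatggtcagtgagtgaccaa
C3: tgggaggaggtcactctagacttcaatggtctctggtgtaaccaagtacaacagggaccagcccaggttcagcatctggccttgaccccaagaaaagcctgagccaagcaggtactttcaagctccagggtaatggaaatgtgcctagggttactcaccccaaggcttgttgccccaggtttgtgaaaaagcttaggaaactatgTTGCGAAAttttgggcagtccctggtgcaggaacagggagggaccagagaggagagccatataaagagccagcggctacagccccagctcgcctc
AGGAAGT was present in 3 of the 6 promoters and in 9.35% of the 32851 RefSeq promoters of the same length, searched on both strands. The first capital as printed lay 53 bases before the RefSeq start in C1qb, 195 in C1qc, and 190 and 72 in C5ar1. The distances depend on the annotation. GENCODE starts C1qc at 136893065 and C5ar1 at 16259540, upstream of the RefSeq starts, and the C5ar1 matches lie after that start. TTGCGNAA was present in C3 alone of the 6, at 45 bases before the start, and in 0.798% of all promoters. The MAF-type letters TGCTGA were in C1qb, C3, C3ar1 and C5ar1 and in 19.5% of all promoters, and the STAT-type letters TTCNNNGAA were in C1ra and in 8.30%. The letters were picked with the sequences in view, and a match describes letters, not binding. The genes of the C1q chains lie side by side on chromosome 4, from C1qb at 136880129 through C1qc to the end of C1qa at 136898803 (GENCODE on GRCm38), a stretch of 18675 bases.

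The genes fell into a macrophage set and a stromal set, with C4b high in both. C1qa, C1qb, C1qc, C3ar1 and C5ar1 were more than 4-fold higher in macrophage-like than in fibroblast-like cells in all 4 libraries, against 4.47% of the 7606 genes tested. C3, C1ra and Serping1 were more than 4-fold higher in fibroblast-like cells in all 4, against 12.9% of the same genes. C4b passed in neither direction. These counts follow from the choice of the genes and carry no evidence of their own.

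**Figure D1:**
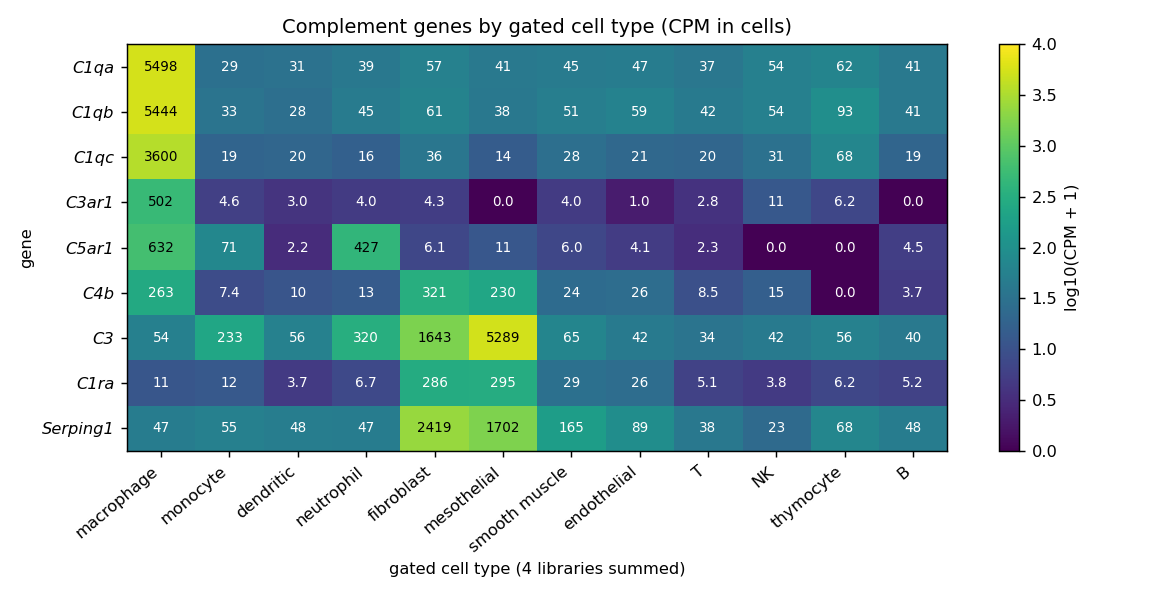
Level of the 9 complement genes in 12 gated cell types, with the UMIs of the 4 libraries summed. The number in each cell of the grid is CPM and the colour is its log10 after adding 1. C1q genes and C3ar1 are bright in macrophages alone, C5ar1 in macrophages and neutrophils, C3 and Serping1 in fibroblasts and mesothelial cells, and C4b in macrophages, fibroblasts and mesothelial cells. C3 is also at 320 in neutrophils and 233 in monocytes, near these C4b levels.

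C1q, the recognition molecule of the classical pathway, stood out in the macrophage-like cells. C1qa was at 5272, 6005, 4231 and 6119 CPM there. C1qb was at 5605, 5144, 4232 and 5816, and C1qc at 3345, 4033, 3144 and 4063. The lowest value of each chain was that of the Nrf2flox/flox atherosclerotic library, which had the fewest macrophage-like cells. The macrophage level was 55.0 to 138 times the fibroblast level over the C1q genes and libraries, and macrophage-like cells held 80.6% to 89.6% of all UMIs of a C1q gene in a library.

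Almost every macrophage-like cell carried C1q. At least 1 UMI of C1qa was found in 97.8% of the 1244 cells (95% Clopper-Pearson interval 96.9% to 98.6%), and UMIs of all 3 chains in 96.2%. With each cell thinned to 1000 UMIs, 94.8% still had C1qa and 88.9% had all 3 chains. Lymphocytes, which do not make C1q, give the background of free RNA. In T cell-like cells C1qa was at 21.5, 49.4, 33.9 and 80.8 CPM, and 27.4% of the cells had a UMI of it. After thinning, 5.78% had one and 0 of 761 had all 3 chains. With 0 read as at most 3 cells, the share is up to 0.394%, which is not a Clopper-Pearson limit. Median depth was 9078 UMIs in macrophage-like and 6960.5 in T cell-like cells.

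C1qa was low but present outside macrophages. Over the other gates with at least 20 cells, fibroblast-like cells included, it ranged from 14.1 to 116 CPM, and within a library the ranges were 14.1 to 50.5, 48.3 to 66.5, 22.4 to 81.1 and 42.3 to 116. The fibroblast values were 50.5, 48.3, 50.1 and 104. Of all C1q UMIs, C1qa made up 37.8% of 173329 in macrophage-like cells, 36.9% of 15772 in fibroblast-like cells and 37.4% of 733 in T cell-like cells. The share of C1qb was 37.4% (95% Clopper-Pearson interval 37.2% to 37.7%), 39.6% (38.8% to 40.3%) and 42.3% (38.7% to 46.0%) in the same order, and that of C1qc 24.8% (24.55% to 24.96%), 23.5% (22.9% to 24.2%) and 20.3% (17.5% to 23.4%). With the libraries summed, fibroblast-like and T cell-like cells thus had more C1qb and less C1qc in the mix than macrophage-like cells, beyond counting error. Within single libraries this was less clear. Fibroblast and macrophage intervals overlapped for C1qb in both atherosclerotic libraries, and for C1qc in all but the Nrf2Cdh5tKO normocholesterolemic library. In the Nrf2Cdh5tKO atherosclerotic library the C1qb share was 35.6% in T cell-like cells, below the 36.4% of macrophage-like cells. For scale, in macrophage-like cells the C1qb share itself ran from 33.9% to 39.4% over the libraries. C1qa in fibroblast-like cells was 0.977 to 2.35 times its T cell level, and how much of it was free RNA was not tested.

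Both anaphylatoxin receptors were macrophage genes, and C5ar1 was shared with neutrophils. C3ar1, the receptor of C3a, was at 495, 565, 439 and 476 CPM in macrophage-like cells and at 1.89 to 6.74 in fibroblast-like cells. C5ar1, the receptor of C5a, was at 588, 639, 604 and 774 in macrophage-like cells. Neutrophil-like cells had C5ar1 at 499, 358, 277 and 575, from 97, 16, 17 and 7 cells, while C3ar1 was found in 3 of their 137 cells.

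The groups of cells were ordered in the same way in every library for both receptors: macrophage-like cells above neutrophil-like cells for C5ar1 (with overlapping intervals in the last library, which had 7 neutrophil-like cells), and macrophage-like cells far above all others for C3ar1. Monocyte-like cells had C5ar1 at 62.8, 62.8, 55.8 and 152, below both. Their C3ar1 was 7.84 in the first library and 0 in the others, which held 10 to 21 such cells each. T cell-like cells had at most 5.51 CPM of C5ar1 and at most 4.46 of C3ar1.

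Fibroblast-like cells carried the stromal members. C3, the central component of the cascade, was at 1573, 1491, 2247 and 1907 CPM, 23.9 to 54.4 times the macrophage level. Serping1 was at 2297, 2330, 3064 and 2749, 44.9 to 88.6 times, and C1ra, the protease of the C1 complex, at 272, 253, 401 and 344, 22.0 to 49.7 times. All 3 were higher in both atherosclerotic libraries than in both normocholesterolemic ones. Their UMIs in macrophage-like cells were low. C3 was at 65.8, 44.0, 43.8 and 35.0 in macrophage-like cells and at 50.9, 19.4, 20.2 and 25.7 in T cell-like cells.

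**Figure D2:**
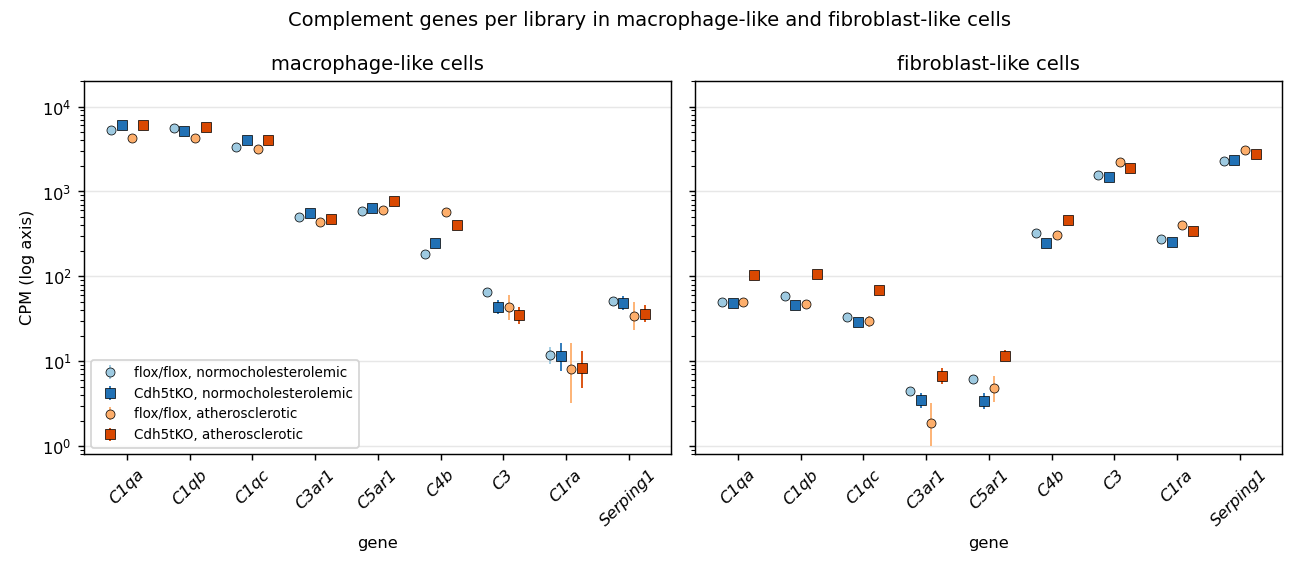
CPM (log axis) of each gene in macrophage-like cells (left) and fibroblast-like cells (right), 1 point per library with its exact Poisson 95% interval. Colour gives the diet and shape the genotype. The C1q genes lie at 3144 to 6119 in macrophages and at 29.3 to 106 in fibroblasts, C3 and Serping1 lie at 1491 to 3064 in fibroblasts and at 34.6 to 65.8 in macrophages, and C4b lies between 182 and 568 in both.

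C3 was also found in other cell types. Mesothelial-like cells had the highest level, 5596, 5150 and 4975 in the 3 libraries where they were found (12, 16 and 2 cells), above every fibroblast value. Neutrophil-like cells were at 319, 184, 405 and 268 and monocyte-like cells at 215, 251, 283 and 215, and these ranges overlapped each other but not those of fibroblast-like or T cell-like cells. The summed level of the 7 fibroblast markers was 624, 223, 185 and 345 in neutrophil-like cells and 766, 136, 107 and 377 in monocyte-like cells (61, 10, 21 and 13 cells). In T cell-like cells it was 383, 228, 160 and 204. The part of free fibroblast RNA in these C3 values was not tested. Fibroblast-like cells still held 94.3% to 97.2% of a library's C3 UMIs.

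Serping1 followed the same stromal order without the mesothelial lead. It was at 1521, 1831 and 1465 in mesothelial-like cells, below each fibroblast value, and at 165, 140, 170 and 206 in smooth muscle-like cells. T cell-like cells were at 47.8, 26.7, 31.2 and 49.6, below all smooth muscle values. C1ra in mesothelial-like cells, 360, 272 and 170, overlapped the fibroblast range. In fibroblast-like cells 98.5% had a UMI of Serping1, 82.9% of C3, 79.3% of C1ra and 56.5% of C4b, and after thinning these shares were 84.0%, 56.1%, 22.5% and 19.6%.

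C4b crossed the split. C4b, the mouse C4 cleaved by the C1 complex, was at 325, 247, 311 and 455 CPM in fibroblast-like cells and at 182, 248, 568 and 407 in macrophage-like cells. The log2 ratio of macrophage to fibroblast level was -0.84, 0.01, 0.87 and -0.16, so neither cell type was above the other throughout. Per library, fibroblast-like cells, the more numerous, held 79.5% to 89.0% of the C4b UMIs and macrophage-like cells 5.94% to 18.3%. C4b has a close paralog, C4a, which was not analysed here, so the C4b values are uncertain as far as the paralogs share reads.

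C4b in macrophage-like cells was well above that in lymphocytes. It was 15.4 to 74.0 times the T cell level, which was 11.8, 4.86, 8.25 and 5.51, and B cell-like cells had 7.11, 0, 0 and 0. After thinning to 1000 UMIs, 23.5% of macrophage-like cells had a C4b UMI, against 1.45% of T cell-like cells and 19.6% of fibroblast-like cells. The summed level of the 7 fibroblast markers in macrophage-like cells was 420, 321, 209 and 231, close to the 383, 228, 160 and 204 of T cell-like cells, with none of the 7 at 0 in either. The part of free fibroblast RNA in the macrophage C4b was not tested.

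C4b was highest in the resident macrophages. Cells that scored for the Lyve1 resident list (Lyve1, Folr2, Cd163, Cd209f and Timd4) had C4b at 333, 437, 1153 and 671 CPM, from 250, 142, 52 and 104 cells. Cells that scored for the proinflammatory list (Cxcl1, Nlrp3, Sdc4, Cxcl16 and Ccl3) had 92.8, 114, 145 and 296. Cells of the cavity list (Lyz1, Retnla, Ear2, Fn1 and Lpl) had 20.7, 24.9, 65.1 and 76.7, from 54, 10, 7 and 9 cells. The resident level was higher in 4 of 4 libraries against both, by 2.27 to 7.98 times and by 8.74 to 17.7 times. The smallest p that an exact two-sided sign-flip permutation over 4 libraries can give rounds to 0.13, so it could not pass 0.05 and was not run.

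**Figure D3:**
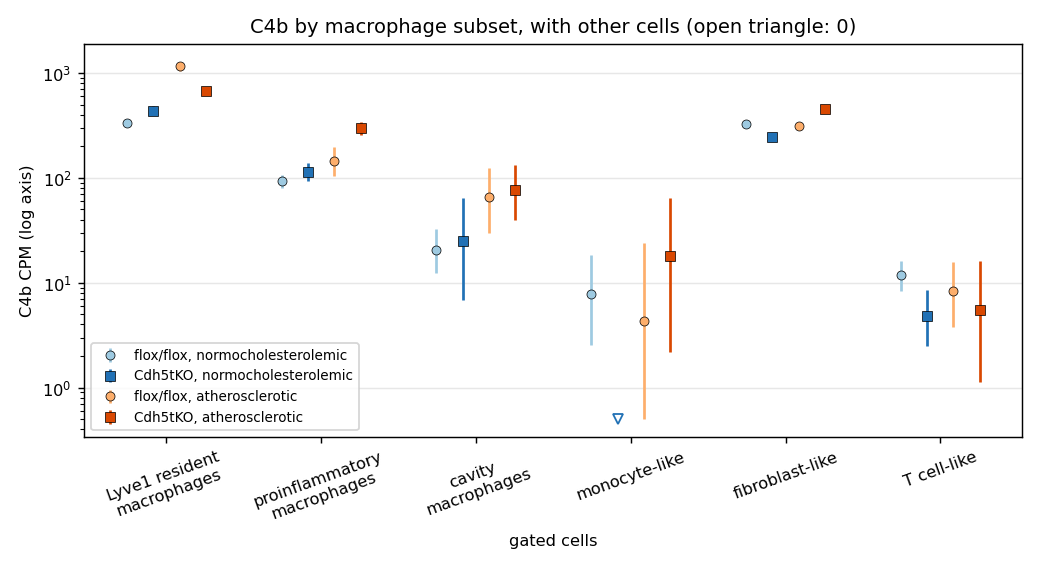
C4b CPM (log axis) in macrophage subsets and in monocyte-like, fibroblast-like and T cell-like cells, 1 point per library with its exact Poisson 95% interval. An open triangle at the lower edge is a value of 0. Lyve1 resident macrophages (333 to 1153) are above the proinflammatory ones in each library, cavity macrophages lie at 20.7 to 76.7, and both orange atherosclerotic points are above both blue ones in all 3 macrophage subsets.

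The receptors and C1q mostly shared the lower level in cavity cells, with smaller steps, but not the whole order of C4b. C3ar1 was at 571, 629, 567 and 523 in Lyve1 resident cells and at 114, 93.4, 304 and 179 in cavity cells, 1.87 to 6.74 times lower in the latter. C5ar1 was at 601, 602, 759 and 861 against 147, 56.0, 268 and 256, and at 742, 802, 614 and 884 in proinflammatory cells, higher than in resident cells in 3 of 4 libraries. C1qa was at 6270, 6517, 5421 and 6639 in resident cells and at 2196, 1033, 4283 and 3970 in cavity cells. C1qa and C1qc were higher in resident than in cavity cells in 4 of 4 libraries and C1qb in 3 of 4. Against proinflammatory cells, C1qa was higher in resident cells in 4 of 4 libraries, by 1.03 to 1.62 times, and C1qb in 2 of 4.

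Fibroblast subsets differed in C3 and C4b. C3 was highest in the cells of the Penk list (Penk, Epyc and Fgf10), at 2884, 3003, 3026 and 3358 CPM. Cells of the Pi16 list, a set that includes Pi16 and Dpp4, had 2100, 1993, 2674 and 2517. Cells of the Comp list (Comp, Fmod, Chad, Cilp2 and Thbs4) had 336, 230, 812 and 748. The order Penk above Pi16 above Comp held in 4 of 4 libraries, with the Penk level 3.73 to 13.0 times that of Comp. Only 2 of the 5 Comp markers were highest in the Comp cells, so that set is less well defined than the others.

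C4b had another order. It was at 722, 525, 515 and 890 in Penk cells and at 182, 127, 189 and 290 in Pi16 cells, a difference of 2.72 to 4.13 times. Comp cells, low in C3, had C4b at 272, 132, 369 and 419, above Pi16 cells in 4 of 4 libraries by up to 1.95 times. C1ra was 1.16 to 1.55 times and Serping1 1.11 to 1.20 times higher in Penk than in Pi16 cells, so both differed less between these subsets than C4b did.

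**Figure D4:**
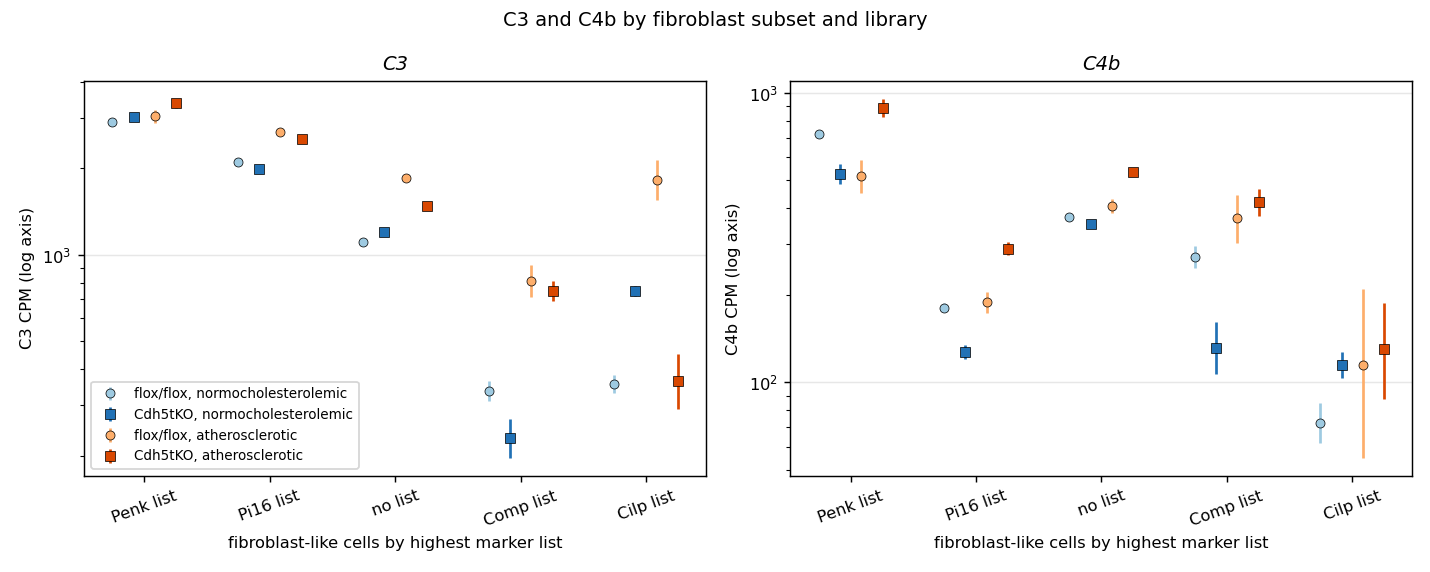
C3 (left) and C4b (right) in CPM (log axes) in fibroblast-like cells grouped by their highest marker list, 1 point per library with its exact Poisson 95% interval. Penk cells lead for both genes, Pi16 cells are high for C3 (1993 to 2674) and low for C4b (127 to 290), and Comp cells are low for C3 (230 to 812). The Cilp point of the Nrf2flox/flox atherosclerotic library rests on 5 cells.

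Atherosclerotic and normocholesterolemic libraries were compared within each genotype, and a gene was called where both ratios passed 1.5-fold in the same direction. In macrophage-like cells C4b was the 1 of 8 genes tested that was called higher, against 0.829% of 5307 genes. Its log2 ratio was 1.64 (95% interval 1.49 to 1.79) in Nrf2flox/flox and 0.71 (0.56 to 0.86) in Nrf2Cdh5tKO. C1ra, with few UMIs in macrophages, was not tested, and 0 genes were called lower, against the same 0.829%. With 1 library each, diet and library cannot be told apart.

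Within the Lyve1 resident cells alone the C4b ratio was 1.79 (1.61 to 1.97) and 0.62 (0.43 to 0.81), and within proinflammatory cells 0.64 (0.11 to 1.13) and 1.38 (1.04 to 1.72). The share of macrophage-like cells in the resident set was 41.9%, 46.1%, 53.6% and 43.0%. After thinning, a C4b UMI was present in 17.5%, 23.0%, 39.6% and 32.6% of macrophage-like cells. The C4b ratio was thus positive in both subsets and in both genotypes, though the larger of the 2 ratios changed genotype between the subsets.

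The other macrophage genes moved less. C1qa was lower in the atherosclerotic library of Nrf2flox/flox by a log2 of -0.32 (-0.37 to -0.27) and at 0.03 (-0.01 to 0.06) in Nrf2Cdh5tKO. C3ar1 was slightly lower in both, at -0.17 (-0.33 to -0.02) and -0.25 (-0.37 to -0.13). C5ar1 was at 0.04 (-0.10 to 0.17) and 0.28 (0.17 to 0.38). In each case the change was under 1.5-fold, that is under 0.585 on the log2 scale. The median log2 ratio over the 8 genes was -0.24 and 0.02, beside 0.14 and -0.10 over all genes tested.

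**Figure D5:**
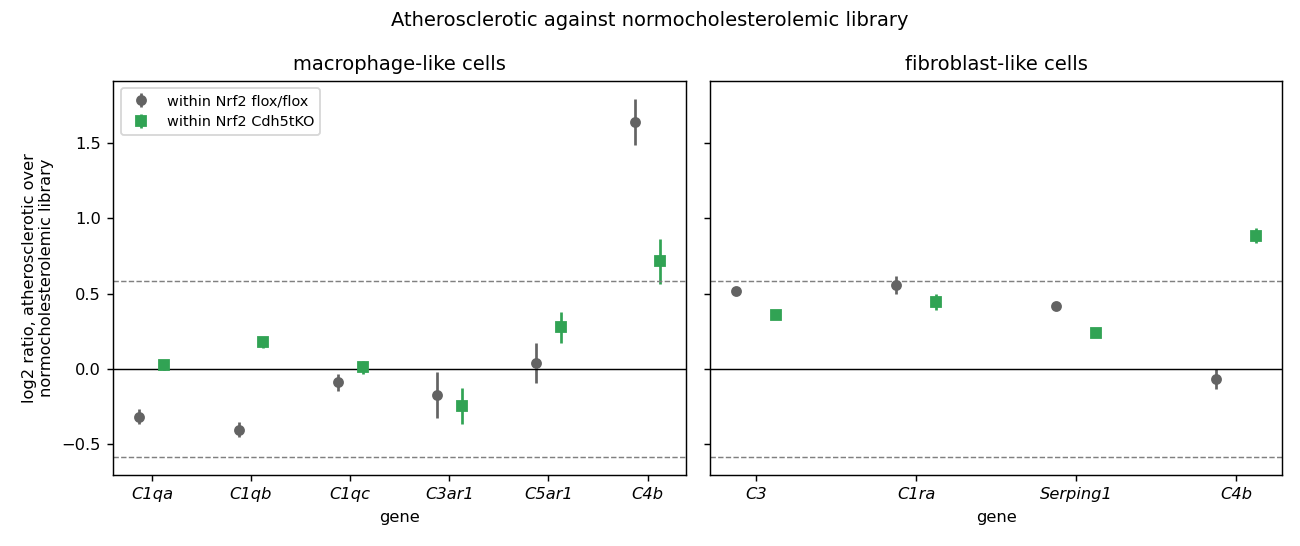
Log2 ratio of the atherosclerotic to the normocholesterolemic library for the genes well above the lymphocyte level in macrophage-like (left) and fibroblast-like cells (right), within each genotype, with exact binomial 95% intervals for counting error. Dashed lines mark 1.5-fold. C4b in macrophages (1.64 and 0.71) is the only plotted gene past the line in both genotypes, and the stromal genes C3, C1ra and Serping1 lie between 0.24 and 0.56.

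In fibroblast-like cells 0 of 9 genes were called in either direction, against 1.16% of 11150 genes called higher and 1.68% called lower. C3 was at 0.51 (0.49 to 0.54) and 0.36 (0.33 to 0.38), C1ra at 0.56 (0.50 to 0.62) and 0.45 (0.39 to 0.50), and Serping1 at 0.42 (0.39 to 0.44) and 0.24 (0.22 to 0.26). All 3 were higher in both genotypes, by less than 1.5-fold. C4b was at -0.07 (-0.13 to -0.00) in Nrf2flox/flox and 0.88 (0.83 to 0.93) in Nrf2Cdh5tKO. By subset, C3 was at 0.07 and 0.16 in Penk cells, at 0.35 and 0.34 in Pi16 cells, and at 1.27 and 1.70 in Comp cells. Among these 3 subsets the Comp cells, with the least C3, had the largest ratio. Cilp cells went the other way in Nrf2Cdh5tKO, with C3 at 747 CPM in the normocholesterolemic and 364 in the atherosclerotic library (179 and 20 cells). In Nrf2flox/flox the atherosclerotic library held only 5 Cilp cells. The median over the 9 genes was -0.07 and 0.95, beside 0.06 and -0.05 over all genes tested.

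Within Nrf2Cdh5tKO alone 6 of the 9 genes passed 1.5-fold higher in the atherosclerotic fibroblast-like cells, against 3.91% of 11191 genes. They were C4b and the 5 macrophage genes. C1qa, C1qb and C1qc had ratios of 1.11 to 1.22, with C1qa going from 48.3 to 104 CPM. In T cell-like cells of the same libraries C1qa went from 49.4 to 80.8, and in smooth muscle-like cells from 58.2 to 116. In B cell-like cells C1qa went the other way, from 66.5 to 42.3, with 37 and 25 cells. The summed level of the 7 macrophage markers in fibroblast-like cells was 128, 137, 158 and 171. The part of free macrophage RNA in the fibroblast ratios was not tested.

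The libraries labelled Nrf2Cdh5tKO were compared with those of Nrf2flox/flox within each diet in the same way. None of the genes was called in both diets, in either direction, in macrophage-like cells (against 0.947% of 3907 genes higher and 0.768% lower) or in fibroblast-like cells (0.231% of 9942 higher and 0.0805% lower). In macrophage-like cells C1qa was higher in both diets, by 0.19 and 0.53, C1qc by 0.27 and 0.37, and C5ar1 by 0.12 and 0.36. The median log2 ratio over all genes tested in these cells was 0.19 and -0.04. In the normocholesterolemic comparison C1qa was thus at the median of all genes and C5ar1 below it. C4b went from 0.45 in the normocholesterolemic to -0.48 in the atherosclerotic comparison. In fibroblast-like cells C3 was at -0.08 and -0.24, C1ra at -0.11 and -0.22, Serping1 at 0.02 and -0.16, and C4b at -0.40 and 0.55. Within the atherosclerotic libraries alone 5 of the 9 genes passed 1.5-fold higher there, against 2.22% of 9942 genes. They were the macrophage genes C1qa, C1qb, C1qc, C3ar1 and C5ar1. Within the normocholesterolemic libraries 1 of 9, C5ar1, passed 1.5-fold lower, against 5% of 12281 genes. C5ar1 was at 6.17, 3.44, 4.79 and 11.7 CPM in fibroblast-like cells. The part of free macrophage RNA in these ratios was not tested.

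The rest of the pathway was read from a list of 51 other complement genes, of which 50 had a row in the table and 26 reached 20 CPM in some cell type. Of these, 3 were highest in macrophage-like cells, namely Cfp (properdin) at 426, Fcna (ficolin A) at 130 and Vsig4, a C3b receptor, at 38.9. In fibroblast-like cells 5 were highest, among them C7, a component of the membrane attack complex, at 428 and Cfb (factor B) at 56.9. C1s1, the partner protease of C1r, was at 293 in fibroblast-like and 385 in mesothelial-like cells, and C2 at 43.3 and 453. Endothelial-like cells led for Clu (clusterin) at 2182 and Cfd (factor D) at 51.0, the latter from 50 UMIs. Only types with at least 20 cells were ranked, so the 3 cells gated as adipocytes were not compared. B cell-like cells led for the membrane inhibitor Cd55 at 401, beside 245 in fibroblast-like cells as a whole. Fibroblast-like cells of the Pi16 list had more Cd55, at 420, 501, 687 and 759. The other 24 stayed under 20 CPM in each type, among them Hc, the mouse C5 gene, and C6, C9 and Cfi.

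In this list few genes passed 1.5-fold with diet in both genotypes. In fibroblast-like cells 2 of 18 tested were higher, against 1.16% of all genes, and 1, the phagocytic receptor gene Megf10, was lower, against 1.68%. Megf10 was among the genes under 20 CPM in each type, at only 2.33 CPM in fibroblast-like cells over all libraries. Cfb was at 42.0, 37.9, 122 and 120, with log2 ratios of 1.54 (1.43 to 1.66) and 1.67 (1.55 to 1.78), and both atherosclerotic libraries were above both others. C2 was at 41.4, 32.9, 66.5 and 59.3, with ratios of 0.68 and 0.85. By subset the C2 ratios were 1.05 and 0.37 in Pi16 cells, 0.34 and 0.77 in Comp cells, and 0.50 and 0.45 in Penk cells. None of these subsets passed 1.5-fold in both genotypes, while fibroblast-like cells of no list did, at 0.81 and 0.76. In macrophage-like cells 1 of 13 was higher, against 0.829% of all genes. It was C5ar2, the second C5a receptor, at 21.6, 32.1, 62.2 and 53.0. With genotype, Vsig4 in macrophage-like cells was the 1 of 13 higher in both diets, at 33.8, 52.3, 26.5 and 43.8, against 0.947% of all genes. In fibroblast-like cells 0 of 15 passed in either direction, and with 0.231% of all genes higher and 0.0805% lower this count is at the background.

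Genes with the most similar pattern were sought over 29 combinations of cell type and library with at least 20 cells, among 10823 genes, by Pearson's r of log2(CPM + 1). The points share libraries and depth, so r is a description. Nearest to C1qa were Pf4 (0.97), Abcc3 (0.96) and Pla2g2d (0.95), and nearest to C3ar1 Slc7a8 (0.92). C3 was nearest to Ugdh (0.90), Serping1 to Pcolce (0.94) and C5ar1 to Cd33 (0.94). C4b, present in both sets, was nearest to Rab3il1 and Timp2 (both 0.89). Between the chosen genes, r was 0.98 for C1qa and C1qb and 0.90 for C1ra and Serping1, but 0.50 for C4b with C3 and 0.56 for C4b with C1qa.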

How the data were processed

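The 4 groups, each 1 library of pooled mice, were taken from the sample labels. The deposited values were raw UMI counts per gene and cell, which the authors made with Cell Ranger 6.1.2 on mm10 from 10x 3′ v3.1 libraries of sorted live cells. As in the study, cells needed 200 to 6000 genes, and those above 15% mitochondrial UMIs were dropped. Cells were gated on the mean of marker genes scaled to their 99th percentile (score at least 0.25 and 0.1 above the next type), so types are named from markers, as "-like". Doublets were left in apart from the limit on genes. Scrublet (scanpy 1.11.5) called 0.485% to 2.32% of the cells.

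Levels are summed UMIs of a gene over all UMIs of the gated cells, scaled to 1000000 (CPM), with exact Poisson intervals. Ratios have exact binomial and shares Clopper-Pearson intervals at 95%, for counting error only. A gene was counted as tested in a pair of samples with at least 100 of its UMIs in both together. The call rule was tried on simulated counts that held counting error only. They held no variation between libraries or mice, so false calls from that source were not assessed. Members, marker and pathway lists were chosen with earlier results of these data known. All 9 members were named, other pathway genes by their leading type from 20 CPM (some are not reported here), and the genes nearest to 6 members by r. Libraries held 1160 to 8512 barcodes, so precision was lowest in the Nrf2flox/flox atherosclerotic library. Python 3.11.15 and scipy 1.17.1 were used.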

Additional observations from a re-analysis of the deposited data

Results flagged for a closer look

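In several genes the 2 genotypes, or the 2 diets, gave ratios of opposite sign, from 1 library per condition, and the difference was not tested in any of them. C1qb in macrophage-like cells had a diet log2 ratio of -0.41 in Nrf2flox/flox and 0.18 in Nrf2Cdh5tKO, and a genotype ratio of -0.12 in normocholesterolemic and 0.46 in atherosclerotic libraries. C4b in macrophage-like cells had a genotype ratio of 0.45 in normocholesterolemic and -0.48 in atherosclerotic libraries. In fibroblast-like cells C4b went the other way round, with genotype ratios of -0.40 and 0.55 and diet ratios of -0.066 in Nrf2flox/flox and 0.88 in Nrf2Cdh5tKO. Serping1 in fibroblast-like cells had genotype ratios of 0.021 and -0.16. Each pair of diet ratios and the pair of genotype ratios of the same gene rest on the same 4 libraries, so they are not separate observations.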

How the results depend on the processing

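With 1 library per condition, no value can be given for the spread between mice, and no library was left out, since each is a whole condition. No paired analysis was possible because the labels carry no shared replicate numbers. The split kept the same 5 macrophage and 3 fibroblast genes at a 2-fold threshold and under each other choice of cells, gate, denominator and doublets. Of 456 log2 ratios recomputed, 369 stayed within the counting interval, 82 moved outside it and 5 changed sign. The choices differed widely in this. Of 76 ratios each, 33 moved and 4 changed sign with the mean over cells, and 30 moved with the stricter gate. All 76 stayed with at least 2000 UMIs per cell and with a mitochondrial limit of 10%. With the mean over cells in place of summed UMIs, the sign changed for C1qc with diet in Nrf2flox/flox macrophages (0.084), C4b with diet in Nrf2flox/flox fibroblasts (0.065), C4b of macrophages over fibroblasts in the Nrf2Cdh5tKO atherosclerotic library (0.39) and Serping1 with genotype in normocholesterolemic fibroblasts (-0.033). The last was -0.0084 without mitochondrial and ribosomal genes. At a 2-fold threshold 0 genes were called with diet in macrophages, since the C4b ratio in Nrf2Cdh5tKO was 0.71. In fibroblasts diet called 1 gene (C1qc) with the mean over cells and 2 (C1qa and C1qc) with doublets left out, and genotype called 2 (C1qa and C1qc) with the mean over cells. The cause was not tested. Depth limits the rare types most, with 2 to 21 cells in some libraries.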
